A study of Mus musculus with 12 samples.

Results

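The 8 genes of the suppressor of cytokine signalling family (Socs1, Socs2, Socs3, Socs4, Socs5, Socs6, Socs7 and Cish) and the tyrosine phosphatase genes Ptpn2 and Ptpn6 were followed through the RNA of mouse helper T cells with and without the receptor NKG2D. They were taken by name and Ensembl ID from the 39179 gene IDs in the count tables, and all 10 had enough counts to be among the 12189 genes tested. Cytokine receptors signal through Janus kinases (JAK), which phosphorylate STAT transcription factors. SOCS proteins carry an SH2 domain, which binds phosphotyrosine, and a SOCS box, which recruits elongins and a cullin ubiquitin ligase. Several of them are themselves switched on by STAT factors and then hold back the receptor that induced them. TC-PTP, the product of Ptpn2, and SHP-1, the product of Ptpn6, remove phosphate from JAKs, STATs or receptors.

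The cells were CD4 T cells with the transgenic OT-II receptor for an ovalbumin peptide, of the strain C57BL/6 x OT-II or OT-II x NKG2D-/-, taken as naive cells from lymph nodes and spleen. Cells of both genotypes were cultured together with antigen-presenting cells, the OVA323-339 peptide and an antibody to CD28, stimulated on day 0 and day 5 and harvested on day 8. Poly-A RNA was sequenced in 12 samples, 3 in each of 4 groups. Th17 KO cells lacked NKG2D and were sorted by the congenic marker Thy1.1, and Th17 WT cells were sorted as Thy1.2 and NKG2D positive; both had been given IL-1b, IL-6, IL-23 and antibodies to IFNg and IL-4, with IL-12 added after the second stimulation. Th1 KO and Th1 WT cells were sorted in the same 2 ways after culture with IL-2, IL-12 and an antibody to IL-4. A KO and a WT group thus differ at once in genotype, in the gate on NKG2D and in the Thy1 allele, and KO cells had shared their culture with WT cells. No label ties samples to a culture or a mouse; p-values therefore reflect the spread among the samples at hand, and this may be technical.

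The 6 Th1 libraries and 3 of the Th17 libraries held 9108203 to 12688637 counts, while the other 3, called shallow here, had fewer. Th17 KO 2 had 1722228 counts, of which 51.0% fell on 1 unnamed gene ID. Th17 WT 2 had 2731909 (18.3% on that ID) and Th17 WT 3 had 1647232 (48.1%). Values are given as CPM, counts scaled to the library size after TMM normalisation. Klrk1, the gene of NKG2D, had at most 3.35 CPM in Th17 KO and 130 to 141 CPM in Th17 WT libraries, and 3.31 to 5.63 CPM in Th1 KO and 128 to 161 CPM in Th1 WT libraries. Il17a was listed at 0 in all 6 Th1 libraries, and its level was 3.15 to 8.49 CPM in Th17 KO and 0 to 2.37 CPM in Th17 WT libraries. Il17f, the companion cytokine gene, had 8.40 to 14.2 CPM in Th17 KO and 1.04 to 3.73 CPM in Th17 WT libraries, and at most 0.0808 CPM in Th1 libraries. Ifng reached 38.9 to 66.9 CPM in Th17 KO, 174 to 233 CPM in Th17 WT, 547 to 784 CPM in Th1 KO and 657 to 929 CPM in Th1 WT libraries. Tbx21, the Th1 master regulator, was detected in both cultures, with 44.3 to 80.9 CPM in Th17 KO, 75.5 to 105 CPM in Th17 WT, 50.8 to 59.8 CPM in Th1 KO and 65.5 to 84.4 CPM in Th1 WT libraries. The 6 T cell markers summed to 1838 to 2571 CPM, and the summed markers of B cells, myeloid cells, dendritic cells, CD8 T cells and NK cells each stayed at or below 6.61 CPM in every library.

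RefSeq promoter windows for GRCm38.p6, 250 bases before the transcription start and 20 from it, were at hand for 5 of the 10 genes, namely Cish, Ptpn6, Socs1, Socs3 and Socs4. They were searched for TTCNNNGAA, the core of the element that STAT dimers bind, which reads the same on both strands. It occurred in 2490 of 32851 windows (7.58%). Among the 5, the Cish and Socs3 windows did, and the others had no such letters in this stretch. Shown are the windows of Cish and Socs3, which hold the match, and of Socs1, an interferon-induced member without it. Matches are in capitals, and each window is read 5′ to 3′ on the gene's strand. The Cish window lies at chr9:107296409-107296678 (plus strand), with a match at base 1 and another at base 12 from the start. The Socs3 window lies at chr11:117969347-117969616 (minus strand), with a match 154 bases before the start. The Socs1 window lies at chr16:10785517-10785786 (minus strand). A match is a description of letters and no evidence of binding.
Cish: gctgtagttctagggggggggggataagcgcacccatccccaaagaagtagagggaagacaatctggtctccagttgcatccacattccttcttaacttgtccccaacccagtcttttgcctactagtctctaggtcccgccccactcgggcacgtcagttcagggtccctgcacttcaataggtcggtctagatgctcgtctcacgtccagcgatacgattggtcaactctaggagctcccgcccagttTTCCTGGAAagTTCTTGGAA
Socs3: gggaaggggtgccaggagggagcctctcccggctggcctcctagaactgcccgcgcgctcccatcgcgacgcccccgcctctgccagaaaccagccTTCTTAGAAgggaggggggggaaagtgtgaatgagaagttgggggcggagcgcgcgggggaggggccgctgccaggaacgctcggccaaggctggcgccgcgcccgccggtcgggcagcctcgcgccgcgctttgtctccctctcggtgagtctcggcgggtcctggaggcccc
Socs1: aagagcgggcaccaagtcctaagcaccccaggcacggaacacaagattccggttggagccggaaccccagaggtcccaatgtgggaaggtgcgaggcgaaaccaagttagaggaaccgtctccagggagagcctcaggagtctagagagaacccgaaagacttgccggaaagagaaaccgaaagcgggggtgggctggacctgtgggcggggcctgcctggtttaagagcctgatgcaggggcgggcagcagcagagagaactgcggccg

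Levels of different genes were compared only per length, as CPM per kb of the longest protein-coding transcript. On that scale the gene with the highest level depended on the culture. In Th17 cells it was Ptpn6, with 57.0 ± 6.64 in KO and 68.8 ± 11.7 in WT cells (SD, n = 3 each). In Th1 cells Socs2 led, with 73.5 ± 2.42 CPM per kb in KO and 62.2 ± 3.36 in WT cells, followed by Cish with 56.3 ± 2.53 in KO and 47.1 ± 3.89 in WT cells. Socs5 was lowest in all 4 groups, between 0.662 and 1.13 CPM per kb, and Socs4, Socs6 and Socs7 lay between 3.05 and 4.78 CPM per kb. The order of the upper genes depends on the length chosen. Per kb of all annotated exons together, Ptpn6 led in all 4 groups and Socs2 took rank 5 or 6.

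**Figure D1:**
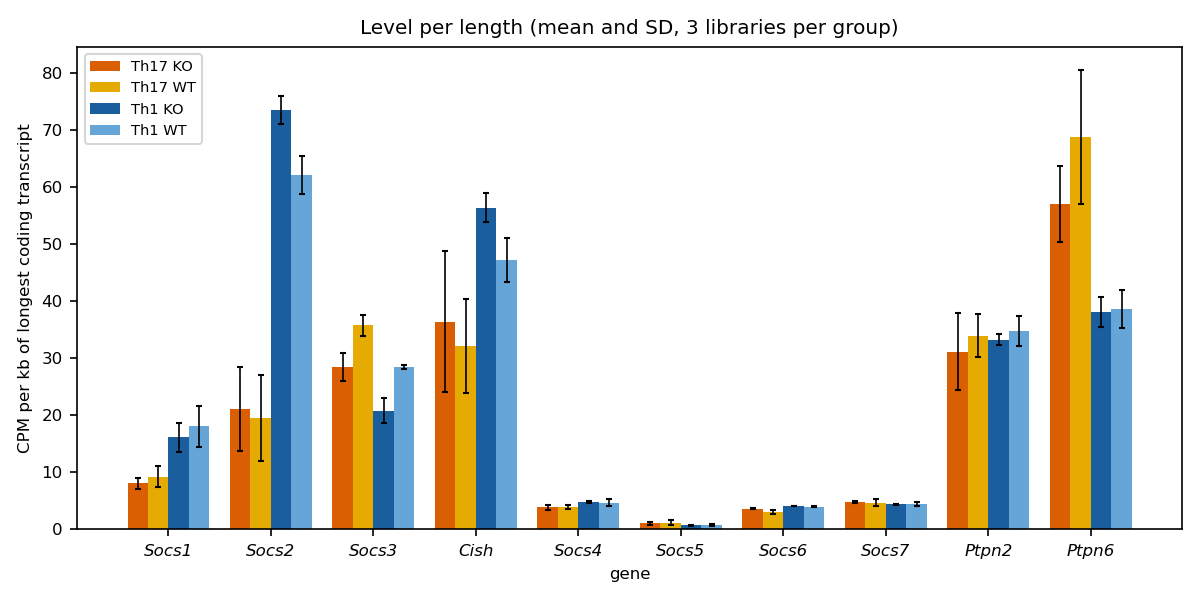
Mean level of each gene in CPM per kb of its longest protein-coding transcript (vertical axis) in Th17 KO, Th17 WT, Th1 KO and Th1 WT cells, with SD over 3 libraries. Socs2 and Cish stand highest in the Th1 groups and Ptpn6 in the Th17 groups, while Socs5 is lowest in all 4.

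Socs3, the inhibitor that binds the IL-6 receptor subunit gp130 and its JAKs, was lower in KO than in WT cells in both cultures. In Th17 cells its level was 78.1, 73.5 and 65.9 CPM in the 3 KO libraries, against 96.2, 90.2 and 87.2 CPM in the 3 WT libraries. In Th1 cells it was 56.1, 56.1 and 46.4 CPM in KO libraries, against 71.8, 72.0 and 73.6 CPM in WT libraries. In each culture every KO library was below every WT library. The decrease was 1.28-fold in Th17 cells (log2 fold change -0.36, SE 0.09, 95% interval -0.54 to -0.18, adjusted p = 0.0127 in edgeR's quasi-likelihood test) and 1.37-fold in Th1 cells (log2 fold change -0.46, SE 0.07, 95% interval -0.61 to -0.30, adjusted p = 0.000329). The Th1 call held in 21 of 21 alternative settings. The Th17 call held in 18 of 21 and was lost without Th17 WT 1 (adjusted p = 0.125), without Th17 KO 3 (0.131) and with all libraries thinned to the smallest (0.340). Within the deep Th17 libraries the values were 78.1 and 65.9 CPM in KO and 96.2 CPM in WT, and within the shallow ones 73.5 CPM in KO and 90.2 and 87.2 CPM in WT. Whether fewer cells of a type carried the RNA or each cell held less cannot be told apart in bulk RNA.

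In the main fit of all 12 libraries, Socs3 was the only one of the 10 genes past the threshold between genotypes in either culture. A fit with a block by library code, given at the end, called more of them. In the main fit 5.83% of all genes tested passed in the Th17 cultures (1.81% higher and 4.02% lower in KO). In the Th1 cultures 4.61% did (1.69% higher and 2.92% lower). A count of 1 in 10 is near those shares and is no feature of the 10 genes. The median log2 fold change over the 10 genes was -0.06 in Th17 and 0.01 in Th1 cells, against 0.00 in Th17 and 0.00 in Th1 cells over all genes tested. Along with Socs3, the summed B cell markers differed between the Th17 genotypes, with 1.87 to 4.03 CPM in KO and 0.763 to 1.19 CPM in WT libraries. All 4 B cell markers had a count in Th17 KO, and Ms4a1 was at 0 in Th17 WT. Ms4a1 had only 8 counts over the Th17 KO libraries, 7 of them in 1 library, and Th17 WT 2 and Th17 WT 3 are shallow. Mitochondrial genes took 19.0% to 20.8% of counts in Th17 KO and 16.9% to 18.6% in Th17 WT libraries, with the unnamed ID set aside. Il17f and Ifng, given above, differed between the Th17 genotypes as well. The part of any of these in the Socs3 difference was not tested. Their ranges lay closer in Th1 cells, where B cell markers summed to 0.208 to 0.808 CPM in KO and 0.145 to 0.313 CPM in WT libraries, and the mitochondrial share was 14.6% to 15.1% in KO and 14.2% to 14.8% in WT libraries.

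Cish and Socs2, inhibitors that are classical targets of STAT5 downstream of IL-2, ran the other way in Th1 cells without passing the threshold in the main fit. Cish had 168, 160 and 154 CPM in Th1 KO libraries, against 147, 131 and 126 CPM in Th1 WT libraries. Socs2 had 160, 169 and 160 CPM in Th1 KO libraries, against 138, 131 and 146 CPM in Th1 WT libraries. For both genes each KO library lay above each WT library. Such a separation in either direction was seen for 24.5% of all genes tested in this comparison, and 3 of the 10 genes had it, Socs3 among them. The log2 fold change of Cish was 0.26 (SE 0.22, 95% interval -0.24 to 0.75, adjusted p = 0.654) and that of Socs2 was 0.24 (SE 0.20, 95% interval -0.23 to 0.71, adjusted p = 0.657). In this fit all 12 libraries share 1 estimate of the spread for each gene, and both genes spread widely among the Th17 libraries. In a fit of the 6 Th1 libraries alone both genes passed, with adjusted p = 0.00706 for Cish and 0.00321 for Socs2, where 7.89% of all genes passed. With a block by library code both passed as well in edgeR's test (adjusted p = 0.000761 for Cish and 0.00231 for Socs2). There 1315 of 12189 genes passed, and no label shows that the codes mark pairs.

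In Th17 cells these genes did not separate the genotypes. Cish had 145, 83.0 and 83.5 CPM in Th17 KO libraries, against 118, 73.6 and 83.1 CPM in Th17 WT libraries. Socs2 had 65.3, 33.6 and 41.9 CPM in Th17 KO libraries, against 62.8, 32.8 and 34.3 CPM in Th17 WT libraries. For both genes and both genotypes the replicate 1 library was the highest of its group, and the other libraries lay close together, deep or shallow. The adjusted p was 0.831 for Cish and 0.986 for Socs2.

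**Figure D2:**
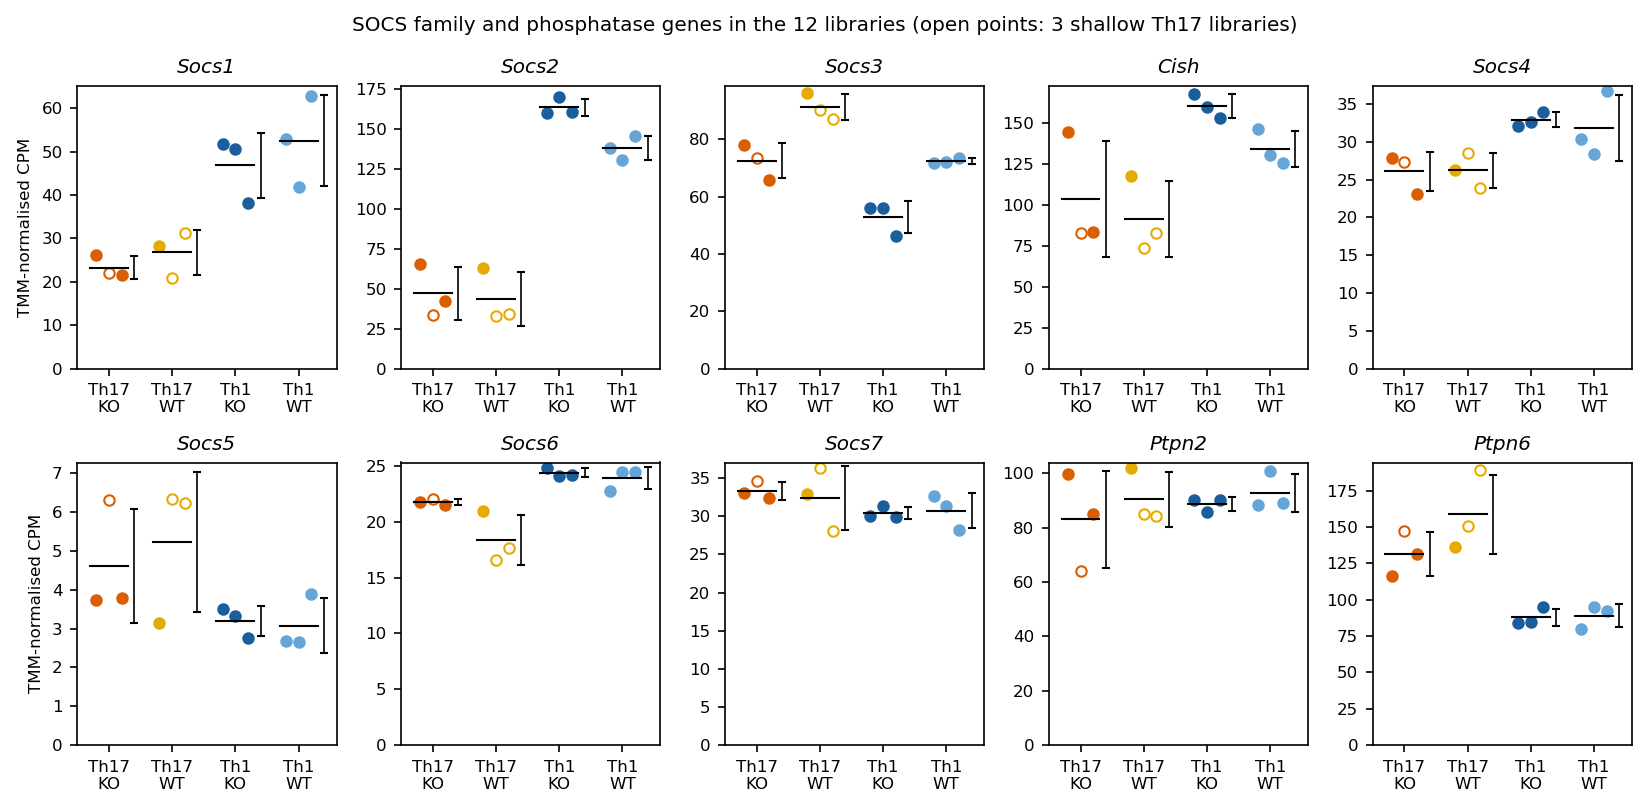
TMM-normalised CPM (vertical axis, from 0) of the 10 genes in each library of the Th17 KO, Th17 WT, Th1 KO and Th1 WT groups, with the group mean as a line and its SD as a bar beside it; open points are the 3 shallow libraries. Socs3 is lower in KO than in WT within each culture, Socs1 and Socs2 are lower in Th17 than in Th1 libraries, and Ptpn6 is higher in Th17 libraries.

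Ptpn6 encodes a phosphatase recruited to inhibitory receptors and cytokine receptors. Its level was 116, 147 and 131 CPM in Th17 KO libraries, against 137, 151 and 189 CPM in Th17 WT libraries. The ranges overlap, and the log2 fold change of -0.25 (SE 0.11) had an unadjusted p of 0.0305 and an adjusted p of 0.219 in edgeR's test. Of 21 alternatives 1 called it, the edgeR fit with a block by library code (adjusted p = 0.0120). No label shows that these codes mark pairs. In Th1 cells Ptpn6 had 84.1, 84.8 and 94.7 CPM in KO libraries, against 80.2, 94.96 and 91.9 CPM in WT libraries, which overlap almost fully. Socs6, which binds growth factor receptors, had 21.8, 22.1 and 21.5 CPM in Th17 KO libraries, against 20.9, 16.6 and 17.7 CPM in Th17 WT libraries. Each KO library lay above each WT library, a separation that 18.5% of all genes tested showed in either direction and that only Socs3 and Socs6 showed among the 10 genes. The test gave an adjusted p of 0.620 for Socs6, and 2 of its Th17 WT values rest on shallow libraries, with as few as 17 counts. Socs1, Socs4, Socs5, Socs7 and Ptpn2 had overlapping ranges between KO and WT in both cultures, with adjusted p of at least 0.685.

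The genotype differences themselves did not differ detectably between cultures. For Socs3 the log2 fold change in Th17 minus that in Th1 was 0.09 (SE 0.12, 95% interval -0.14 to 0.33, adjusted p = 0.882), and for Ptpn6 it was -0.23 (SE 0.14, adjusted p = 0.667). None of the 10 genes passed, against 0.591% of all genes tested, and 0 had an unadjusted p under 0.05 in edgeR; DESeq2 and limma-voom also called 0.

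Between cultures 5 of the 10 genes passed in each genotype, 2 higher and 3 lower in Th17. Of all genes tested 53.6% passed in KO cells (26.9% higher and 26.7% lower) and 47.1% in WT cells (23.5% higher and 23.6% lower). The count is near that background and is no feature of these genes. The ranges were apart for 9 of 10 genes in KO and 6 of 10 in WT cells, beside 55.7% and 52.1% of all genes tested. The KO and the WT comparison use different libraries. Socs1, Socs2, Socs3 and Ptpn6 passed in both. Dendritic cell markers also differed between the cultures, with sums of 3.43 to 5.25 CPM in Th17 KO and 4.15 to 5.14 CPM in Th17 WT, and 1.11 to 1.86 CPM in Th1 KO and 0.971 to 1.45 CPM in Th1 WT libraries. All 3 dendritic markers had a count in each group except Itgax, at 0 in Th1 WT. These counts were low. Over 3 libraries Itgax had 4 in Th17 KO, 2 in Th17 WT and 1 in Th1 KO. Zbtb46 had 34 in Th17 KO, 28 in Th17 WT, 4 in Th1 KO and 3 in Th1 WT. For Flt3 the counts were 55, 36, 50 and 45 in the same order of groups. Mitochondrial shares and B cell markers, given above, were also higher in Th17 libraries, and all 3 shallow libraries are Th17. The part of these in the culture differences was not tested.

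Socs2 had the widest difference. Its 65.3, 33.6 and 41.9 CPM in Th17 KO libraries stood against 160, 169 and 160 CPM in Th1 KO libraries. In WT cells 62.8, 32.8 and 34.3 CPM in Th17 stood against 138, 131 and 146 CPM in Th1 libraries. The highest Th17 library, deep and of replicate 1, was still below every Th1 library. The level was 3.17-fold lower in Th17 KO than in Th1 KO cells (log2 fold change -1.67 with an SE of 0.24, adjusted p = 0.000325) and 2.75-fold lower in Th17 WT than in Th1 WT cells (log2 fold change -1.46, SE 0.25, adjusted p = 0.00127). Without Th17 WT 1, the highest WT library, the log2 fold change in WT was -2.06, and without the 3 shallow libraries it was -1.13. In all of the 20 alternatives run for each genotype the call held.

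Socs1, a potent inhibitor of interferon gamma signalling, was lower by a similar factor in both genotypes. It had 26.2, 22.1 and 21.5 CPM in Th17 KO libraries, against 51.7, 50.6 and 38.2 CPM in Th1 KO libraries. Among WT libraries it had 28.1, 20.96 and 31.1 CPM in Th17, against 52.8, 41.9 and 62.9 CPM in Th1. The ranges of the cultures did not overlap in either genotype. The decrease in Th17 was 1.97-fold in KO, a log2 fold change of -0.98 (SE 0.19) with an adjusted p of 0.00112. It was also 1.97-fold in WT cells, a log2 fold change of -0.98 (SE 0.20) with an adjusted p of 0.00223. In WT the call was lost without the 3 shallow libraries (adjusted p = 0.0555), which leaves a single Th17 WT library. The shallow values rest on few reads, 21 counts in Th17 KO 2, with a 95% counting interval of 13.7 to 33.7 CPM that covers counting error only.

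Cish fell between, with values given above for each library. Its log2 fold change in Th17 was -0.56 in KO (SE 0.23, 95% interval -1.08 to -0.03, adjusted p = 0.0732) and -0.46 in WT cells (SE 0.24, 95% interval -1.02 to 0.09, adjusted p = 0.156). Every Th17 library was below every Th1 library of its genotype, and the narrowest gap in WT lay between 118 CPM in Th17 WT 1 and 126 CPM in Th1 WT 3. The call turns on Th17 KO 1, the highest Th17 library. Without it the log2 fold change was -0.94 in KO (adjusted p = 0.000936), and the WT difference, of unchanged size, had an adjusted p of 0.0199, since all groups share the estimate of the spread. Without Th17 KO 3 the KO value was -0.34. The WT value was -0.81 without Th17 WT 1, -0.18 without the shallow libraries and -0.21 with a term for them. In KO the difference also passed in DESeq2 (0.0383) and limma-voom (0.0263). Where Gm17040 and Gm17041 overlap Cish on the other strand, reads cannot be told apart, because the library kit does not mark strand. These genes had at most 13 and 2 counts. How reads in the shared bases were assigned is not given, so these counts set no bound on the overlap.

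**Figure D3:**
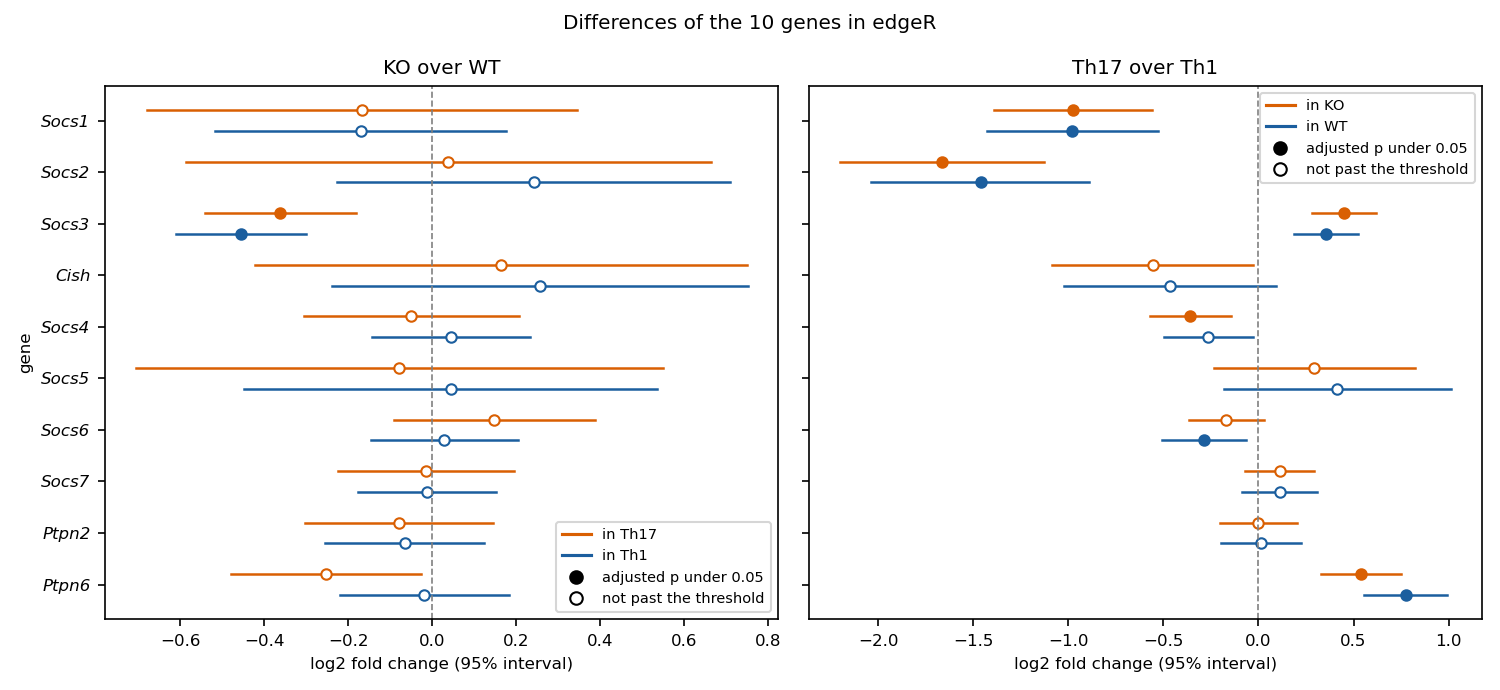
Log2 fold changes (horizontal axis) of the 10 genes with 95% intervals from edgeR, for KO over WT in Th17 and Th1 cells on the left and for Th17 over Th1 in KO and WT cells on the right; filled points have an adjusted p under 0.05. On the left the Socs3 points alone are filled, and on the right Socs1 and Socs2 lie below 0 and Socs3 and Ptpn6 above 0 in both genotypes.

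Socs3 and Ptpn6 were higher in Th17 cells. Socs3 averaged 72.5 ± 6.15 CPM in Th17 KO and 52.9 ± 5.59 CPM in Th1 KO cells, and 91.2 ± 4.56 CPM in Th17 WT and 72.5 ± 0.980 CPM in Th1 WT cells (SD, n = 3 each). The increase was 1.37-fold in KO, at a log2 fold change of 0.45 (SE 0.08) and an adjusted p of 4.06e-05. In WT cells it was 1.28-fold, at a log2 fold change of 0.36 (SE 0.08) and an adjusted p of 0.000808. Both calls held in 20 of 20 alternatives. The Th17 KO and Th1 WT groups, which differ in both genotype and culture, overlapped in Socs3 and had nearly equal means. Ptpn6 rose 1.45-fold in KO cells, a log2 fold change of 0.54 (SE 0.10) with an adjusted p of 0.000197. In WT cells it rose 1.71-fold, a log2 fold change of 0.77 (SE 0.10) with an adjusted p of 7.19e-06. These calls too held in 20 of 20 alternatives. Its lowest Th17 library, with 116 CPM, lay above its highest Th1 library, with 94.96 CPM. The antisense gene Gm20531, which overlaps Ptpn6, had at most 6 counts, which likewise set no bound on the overlap.

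Socs4, whose product targets the EGF receptor in other cell types, had 27.9, 27.3 and 23.1 CPM in Th17 KO libraries, against 32.0, 32.7 and 34.0 CPM in Th1 KO libraries, and the ranges were apart. It fell 1.28-fold, with a log2 fold change of -0.36 (SE 0.10) and an adjusted p of 0.00483. That was lost without Th17 KO 3 (0.0967) and with thinned libraries (0.452). In WT it had 26.3, 28.5 and 23.9 CPM in Th17, against 30.3, 28.4 and 36.7 CPM in Th1 libraries, which overlap (adjusted p = 0.0607). The WT difference passed without Th1 WT 2 (0.0230), without Th17 KO 1 (0.0486), without Th17 KO 3 (0.0497) and with no filter on low counts (0.0335).

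Socs6 fell 1.22-fold in WT cells, to 20.9, 16.6 and 17.7 CPM in Th17 libraries, against 22.8, 24.4 and 24.5 CPM in Th1 libraries (log2 fold change -0.29, SE 0.11, adjusted p = 0.0297). This call held in 12 of 20 alternatives. It was lost without Th1 WT 2 (0.0622), without Th1 WT 3 (0.0682), without Th17 WT 2 (0.120) and without the 3 shallow libraries (0.208), as well as in DESeq2 (0.110). Without Th17 WT 1 the log2 fold change was -0.50. In KO cells it had 21.8, 22.1 and 21.5 CPM in Th17, against 24.9, 24.1 and 24.2 CPM in Th1 libraries, apart but not past the threshold (adjusted p = 0.140).

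Socs5 had 3.14 to 6.33 CPM in the 6 Th17 and 2.66 to 3.89 CPM in the 6 Th1 libraries. The values rest on 34 to 56 counts in the deep libraries, but on only 6 counts in each of Th17 KO 2 and Th17 WT 3 and 16 in Th17 WT 2, which are the highest of the 12 values. Its WT difference passed without Th17 WT 1 (adjusted p = 0.0351, against 0.254 with it). Socs7, a member with a long N-terminal part, ranged from 28.0 to 36.4 CPM over all 12 libraries. Ptpn2, a phosphatase of JAK1, ranged from 64.1 to 102 CPM, and both of these extremes were Th17 libraries. Neither passed in any comparison or alternative.

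By group means, Socs1 ran from Th1 WT through Th1 KO and Th17 WT to Th17 KO, where the Th1 groups overlapped each other and so did the Th17 groups. Socs2 ran from Th1 KO through Th1 WT to Th17 KO and Th17 WT, with an overlap between the last pair. Ptpn6 was highest in Th17 WT, followed by Th17 KO, with which it overlapped, and by the Th1 groups, which overlapped each other. For Socs4, Socs7 and Ptpn2 every neighbouring pair of groups overlapped. Over the 12 libraries the log2 CPM of Socs2 and Cish had a Pearson correlation of 0.916 and those of Socs2 and Ptpn6 one of -0.945, values that the shared split into cultures and the shared library depths enter. Correlated genes were sought only among tested protein-coding genes, with predicted and clone names left out. Of these, the genes most like Socs2 over the 12 libraries were Cmtm6 (Pearson r = 0.995) and C1qtnf1 (0.992). Most like Socs1 were Odf2l (0.979), Mrps26 (0.968) and Tmem14c (0.963), and most like Ptpn6 were Cd9 (0.983), Arf3 (0.982) and Asb2 (0.972). These are descriptions of samples that fall into 2 cultures.

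Of the 4 genes of JAK kinases, which the SOCS proteins restrain, 3 rose in Th17 relative to Th1 in KO and 4 in WT cells, and none fell, where 26.9% of all genes tested rose in KO and 23.5% in WT cells. Jak2 had 190 ± 7.73 CPM in Th17 KO and 80.9 ± 2.35 CPM in Th1 KO cells (log2 fold change 1.24, SE 0.08), and 203 ± 28.4 CPM in Th17 WT and 96.0 ± 2.20 CPM in Th1 WT cells (1.07, SE 0.08), with adjusted p of 4.58e-13 and 1.75e-11 in edgeR. Jak3 and Tyk2 rose in both genotypes, by log2 fold changes of 0.42 and 0.52 in KO and 0.45 and 0.43 in WT cells. Of the 7 STAT genes 6 rose in each genotype and none fell. Stat5a rose by a log2 fold change of 1.10 in KO and 1.05 in WT cells, Stat3 by 0.75 and 0.74, and Stat5b by 0.47 and 0.45. The median log2 fold change was 0.47 over the JAK and 0.47 over the STAT genes in KO cells and 0.44 and 0.42 in WT cells, beside 0.00 in KO and -0.01 in WT over all genes tested.

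Between genotypes the STAT genes differed in direction. Stat5b rose in KO cells of both cultures, to 177 ± 5.78 CPM in Th17 KO, against 128 ± 6.92 CPM in Th17 WT (log2 fold change 0.50, SE 0.07, adjusted p = 6.52e-05), and to 128 ± 9.31 CPM in Th1 KO, against 91.8 ± 5.49 CPM in Th1 WT cells (0.48, SE 0.07, adjusted p = 2.67e-05). Both calls held in 21 of 21 alternatives. Stat4 fell in Th1 KO cells (-0.29, SE 0.08, adjusted p = 0.0279), a call that 7 of 21 alternatives ended, 5 of which left out a single Th1 library. So did Jak1 in Th17 KO cells (-0.27, SE 0.08, adjusted p = 0.0455), which 15 of 21 alternatives ended, 9 of them leaving out 1 library. In all, 1 STAT gene rose and 0 fell in Th17 KO cells and 1 rose and 2 fell in Th1 KO cells. The shares over all genes tested were 1.81% higher and 4.02% lower in Th17 KO, and 1.69% higher and 2.92% lower in Th1 KO cells. Of the JAK genes 1 fell in Th17 KO cells and 0 in Th1 KO cells, where 3 had an unadjusted p under 0.05 and limma-voom called 2 and DESeq2 0.

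**Figure D4:**
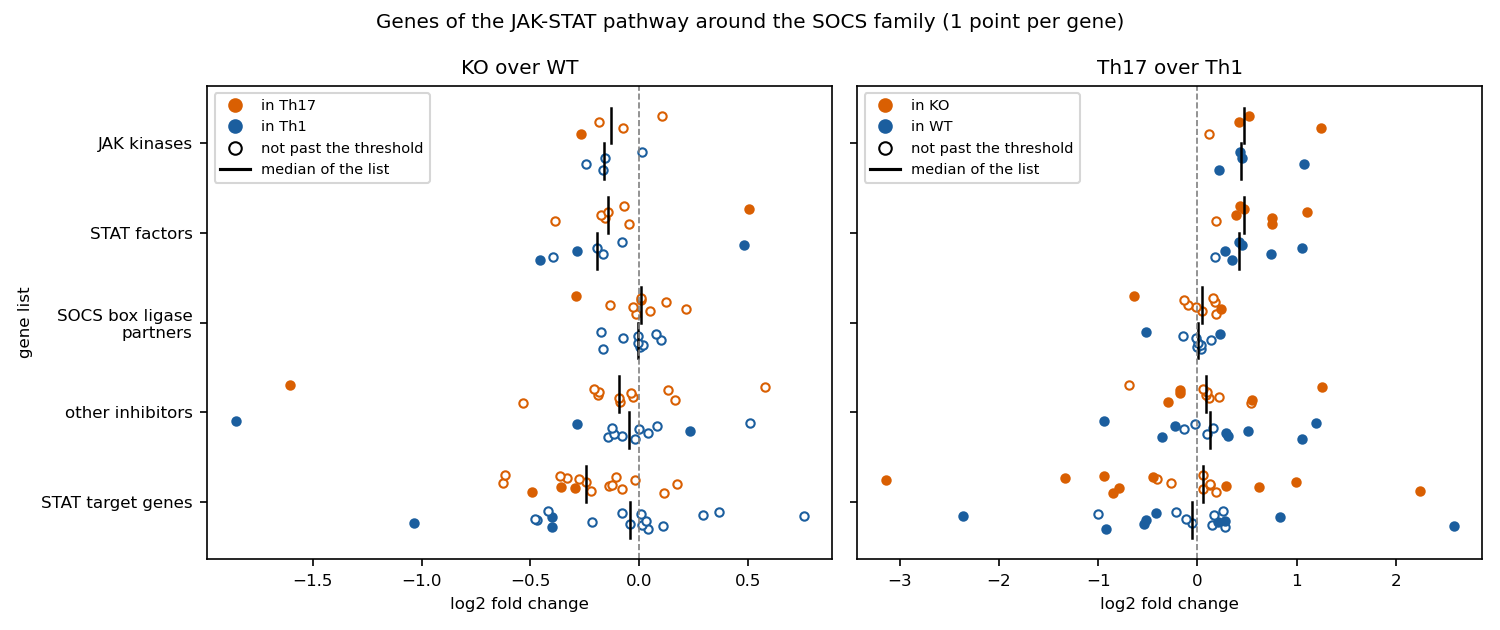
Log2 fold changes (horizontal axis) of JAK, STAT, SOCS box ligase, other inhibitor and STAT target genes, 1 point per gene, for KO over WT on the left and Th17 over Th1 on the right; filled points have an adjusted p under 0.05 and black lines are list medians. JAK and STAT genes lie right of 0 in the culture comparison, and the points farthest left between genotypes belong to Usp18.

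Of 22 receptor subunit genes 19 were tested. In Th17 KO cells 1 rose and 4 fell relative to Th17 WT, and in Th1 KO cells 1 rose and 2 fell relative to Th1 WT. Among all genes tested 1.81% rose and 4.02% fell in Th17 KO, and 1.69% rose and 2.92% fell in Th1 KO cells. Il6st, which encodes the gp130 subunit that SOCS3 binds, was lower in KO in both cultures. It had 3.97 ± 0.931 CPM in Th17 KO and 11.1 ± 2.87 CPM in Th17 WT cells (log2 fold change -1.16, SE 0.24, adjusted p = 0.00322), and 14.5 ± 3.08 CPM in Th1 KO and 22.3 ± 0.428 CPM in Th1 WT cells (-0.63, SE 0.13, adjusted p = 0.00579). The Th17 values rest on 3 to 64 counts in KO and 11 to 96 counts in WT libraries. The Th17 call was lost without the shallow libraries (0.0709) and the Th1 call without Th1 KO 2 (0.0508), and both with thinned libraries. Il23r, a subunit of the IL-23 receptor, rose in Th17 KO to 71.1 ± 5.61 CPM, against 41.4 ± 2.63 CPM in Th17 WT (0.75, SE 0.12, adjusted p = 0.000145). Ifngr1, the ligand-binding chain of the interferon gamma receptor, fell in Th17 KO to 209 ± 21.2 CPM, against 321 ± 17.0 CPM in Th17 WT (-0.62, SE 0.07, adjusted p = 3.77e-06). In Th1 KO cells Il7r fell (-0.27, SE 0.06, adjusted p = 0.00652), lost without Th1 KO 1 (0.0670), and Ifngr2 rose at a very low level, with 7 to 18 counts in Th1 KO and 0 to 5 counts in Th1 WT libraries (adjusted p = 0.00777), lost without Th1 KO 3 (0.0613) and with thinned libraries (0.573). The genotype difference of Ifngr1 in Th17 minus that in Th1 was -0.47 (SE 0.10, adjusted p = 0.0220), which 7 of 20 alternatives ended, 5 of them leaving out 1 library.

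Between cultures 8 receptor genes rose and 5 fell in KO and 10 rose and 5 fell in WT cells. Among all genes tested 26.9% rose and 26.7% fell in KO, and 23.5% rose and 23.6% fell in WT cells. Il23r had 71.1 ± 5.61 CPM in Th17 KO and 0.554 ± 0.428 CPM in Th1 KO cells, and 41.4 ± 2.63 CPM in Th17 WT and 0.321 ± 0.0987 CPM in Th1 WT cells. Ifngr1 fell in Th17, with log2 fold changes of -1.61 in KO and -1.14 in WT cells. Il12rb1, shared by the receptors of IL-12 and IL-23, fell by 0.94 in KO and 0.96 in WT cells on the log2 scale. Each of these calls held in 20 of 20 alternatives.

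Of 9 genes of the SOCS box ligase, 1 rose and 1 fell in Th17 relative to Th1 in each genotype, where 53.6% of all genes tested passed in KO and 47.1% in WT cells. Ube2f, a conjugating enzyme for NEDD8, fell by 0.63 in KO and 0.52 in WT cells (log2 scale, SE 0.07 and 0.08), in 20 of 20 alternatives each. The genes that rose were the cullin gene Cul5 in KO (0.23, adjusted p = 0.0188) and its RING partner Rnf7 in WT cells (0.22, adjusted p = 0.0477), calls that 4 and 13 of 20 alternatives ended, 2 and 8 of these by leaving out 1 library. Between genotypes 0 were called in Th1 cells by edgeR, where 4.61% of all genes tested passed. There 2 had an unadjusted p under 0.05, and DESeq2 called 0 and limma-voom 1. In Th17 KO cells Ube2f fell (-0.29, SE 0.09, adjusted p = 0.0430), which 13 of 21 alternatives ended, 6 of them leaving out 1 library.

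Among 12 other inhibitors, Usp18, which displaces JAK1 from the type I interferon receptor, was far lower in KO cells. It had 3.97 ± 2.08 CPM in Th17 KO and 15.2 ± 1.65 CPM in Th17 WT cells (log2 fold change -1.60, SE 0.30, adjusted p = 0.00616), and 7.70 ± 2.07 CPM in Th1 KO and 27.6 ± 5.10 CPM in Th1 WT cells (-1.85, SE 0.20, adjusted p = 8.89e-05). The Th17 values rest on 2 to 74 counts in KO and 15 to 158 counts in WT libraries. The Th1 call held in 21 of 21 alternatives, and the Th17 call was lost in limma-voom (0.0509) and without the shallow libraries (0.160). Usp18 was the only one of the 12 to pass in Th17 KO cells in the main fit of all libraries, beside 5.83% of all genes tested. The alternatives called 0 to 4. In Th1 KO cells the phosphatase gene Ptprc fell (-0.28, SE 0.07, adjusted p = 0.0206) and Ptpn1 rose (0.23, SE 0.07, adjusted p = 0.0436), calls that 5 and 8 of 21 alternatives ended, 4 and 6 of them by leaving out 1 Th1 library. Between cultures 2 rose and 3 fell in KO and 5 rose and 3 fell in WT cells. Over all genes tested 26.9% rose and 26.7% fell in KO, and 23.5% rose and 23.6% fell in WT cells. Sh2b3, an adaptor that holds back JAK2, rose by 1.26 (SE 0.19) in KO and 1.19 (SE 0.24) in WT cells on the log2 scale, the WT call being lost with thinned libraries (0.108). Pias2 rose by 0.55 in KO cells, and Ptpn1 by 0.51 in WT cells.

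Of 17 STAT target genes 0 rose and 3 fell in KO relative to WT in each culture. Among all genes tested 1.81% rose and 4.02% fell in Th17 KO, and 1.69% rose and 2.92% fell in Th1 KO cells. The median log2 fold change of the list was -0.245 in Th17, with 2 of 17 positive, and -0.04 in Th1 cells, with 8 positive. Gbp2, an interferon-induced GTPase, had 627 ± 32.8 CPM in Th17 KO and 805 ± 33.0 CPM in Th17 WT cells (log2 fold change -0.36, SE 0.07, adjusted p = 0.00175), and 407 ± 31.0 CPM in Th1 KO and 834 ± 60.4 CPM in Th1 WT cells (-1.03, SE 0.07, adjusted p = 6.02e-11). The difference between these effects passed (0.68, SE 0.10, adjusted p = 0.000259), also in 20 of 20 alternatives, while the Th17 call was lost without the shallow libraries (0.117). Bcl3 fell in both cultures (-0.49 in Th17 and -0.40 in Th1), with calls that 8 and 5 of 21 alternatives ended, 4 and 3 of them by leaving out 1 library. In Th17 KO cells Ccnd3 fell (-0.30, adjusted p = 0.0113, lost without Th17 WT 1 at 0.120 and with the 2 groups alone at 0.0770), and in Th1 KO cells Junb fell (-0.40, adjusted p = 0.0183, lost without Th1 WT 1 at 0.0684 and without the shallow libraries at 0.124). Between cultures 4 rose and 6 fell in KO and 4 rose and 5 fell in WT cells. Over all genes tested 26.9% rose and 26.7% fell in KO, and 23.5% rose and 23.6% fell in WT cells. Bcl6, a repressor that STAT3 induces, had 15.3 ± 4.06 CPM in Th17 KO and 2.88 ± 0.636 CPM in Th1 KO cells, and 17.9 ± 4.28 CPM in Th17 WT and 2.71 ± 0.241 CPM in Th1 WT cells. Ccnd3, a D-type cyclin gene, fell by 0.79 in KO and 0.53 in WT cells on the log2 scale.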

How the data were processed

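Poly-A RNA of 12 sorted samples was sequenced as read pairs after full-length cDNA synthesis and tagmentation, per the labels' protocols. The submitters' processing notes name featureCounts, TopHat2, Bowtie2 and the build GRCm38 (mm10). Tool versions, annotation release, strand setting and handling of multi-mapped reads are not given in the sources used here. What the authors deposited are whole-number counts for each Ensembl ID, not normalised as far as the values show. Of 39179 IDs 37607 (96.0%) were named with a GENCODE annotation of GRCm38. Labels give no replicate numbers, so numbers follow the order of deposit and only name libraries.

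Counts were normalised by TMM, filtered with filterByExpr and tested with edgeR 4.0.16 (quasi-likelihood F-test, robust, 4 groups fitted together), with Benjamini-Hochberg adjustment over 12189 genes and a threshold of 0.05. Positive log2 fold changes mean higher in KO, or in Th17. Standard errors are the absolute log2 fold change over the root of F. Libraries of a group differed by more than sampling noise (chi-square over degrees of freedom 2.27 to 6.26). Pathway lists were described by counts and medians. The 10 genes and the lists were chosen with earlier results of these data known. Of each list, up to 3 genes of smallest p past the threshold were named in each comparison. For the 3 genes of widest range over groups, the 3 most correlated genes were sought (log2 CPM, prior count 2). That search took only tested protein-coding genes and left out predicted and clone names. Single results of a few genes are not reported here; counts and medians cover whole lists.

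Alternatives were RLE size factors, no filter, DESeq2 1.42.0, limma 3.58.1 (voom with sample weights), only the groups compared, a block by library code, libraries thinned to 1647232 counts, each library left out, the 3 shallow libraries left out, and a term for them, the last added after seeing the data. On simulated counts with 200 changed genes the test recovered 74.6%, 88.1% and 98.5% of changes of 1.5, 2 and 3-fold in the Th17 genotype comparison. In the Th1 one it recovered 91.0%, 94.0% and 100%, and 5.95% and 8.21% of calls were false. The changed genes were drawn only above a lower limit of mean CPM, and folds under 1.5 were not simulated. The rates thus do not cover the 1.28-fold and 1.37-fold Socs3 differences or genes as low as Socs5. Software was Python 3.11.15 (scipy 1.17.1, pandas 2.3.3, matplotlib 3.10.9) and R 4.3.3.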

Additional observations from a re-analysis of the deposited data

Results flagged for a closer look

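For Ifngr1 and Gbp2 the genotype difference itself differed between the cultures, by edgeR's interaction test with adjustment over all genes tested. For Ifngr1 the log2 difference of differences was -0.47 (adjusted p = 0.0220), with a log2 fold change of -0.62 in Th17 and -0.15 in Th1 cells. For Gbp2 it was 0.68 (adjusted p = 0.000259), with -0.36 in Th17 and -1.03 in Th1 cells. The Ifngr1 call was lost in 7 of 20 alternatives. These were thinned libraries (adjusted p = 0.0614), the fit without the shallow libraries, and 5 fits that left out 1 library. The largest adjusted p, 0.103, came without Th17 KO 3. The Gbp2 call held in 20 of 20 alternatives.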

How the results depend on the processing

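Of 856 alternative values for the 42 differences printed for the 10 genes, 779 kept their direction and side of the threshold, 14 lost the call, 14 gained it and 49 changed sign. The sign changes fell in 13 differences, and 0 of these passed in any setting, so no direction is read from them. They are given here as log2 fold changes. For KO against WT in Th1, thinning gave -0.053 for Socs6 and 0.029 for Ptpn6. With 1 library left out the values ran from -0.028 to 0.16 for Socs4, -0.048 to 0.25 for Socs5, -0.0047 to 0.048 for Socs6, -0.071 to 0.034 for Socs7 and -0.088 to 0.029 for Ptpn6. For KO against WT in Th17, leaving out 1 library gave -0.31 to 0.64 for Socs2, -0.16 to 0.066 for Socs4, -0.69 to 0.17 for Socs5, -0.045 to 0.033 for Socs7, -0.22 to 0.51 for Cish and -0.22 to 0.070 for Ptpn2. There the fit without the shallow libraries gave -0.23 for Socs2, 0.25 for Socs5 and -0.054 for Cish, and a term for these libraries gave -0.19 for Socs2, 0.21 for Socs5, 0.00059 for Socs7 and -0.012 for Cish. The replicate block gave 0.048 for Socs4, 0.041 for Socs5 and 0.028 for Socs7, and thinning gave 0.096 for Socs4. Ptpn2 in Th17 against Th1 in KO was 0.00077 with RLE size factors, 0.012 with limma-voom, 0.011 with 2 groups, 0.052 without the shallow libraries, 0.045 with a term for them and -0.14 to 0.060 with 1 library left out. In WT it was -0.018 with no filter, -0.030 with limma-voom, -0.0056 thinned and -0.13 to 0.069 with 1 library left out. Of the 8 single-gene interactions that are not printed, 7 changed sign in at least 1 alternative and 0 passed. Among the 10 genes the number called was 3 in Th1 KO against WT with the 2 groups alone; in Th17 KO against WT it was 0 with thinned libraries and 0 to 1 with 1 library left out; and in Th17 against Th1 in WT it was 3 without the shallow libraries. Over all genes, KO against WT gave 711 calls in Th17, and 463 with limma-voom, 356 with 2 groups, 279 thinned, 319 without the shallow libraries and 411 to 713 with 1 library left out. In Th1 it gave 562, and 317 with DESeq2, 1074 with limma-voom, 922 with 2 groups, 196 thinned and 260 to 679 with 1 library left out. Th17 against Th1 gave 6534 calls in KO and 5738 in WT, and 3558 and 3322 thinned. The interaction gave 72, and 207 with no filter, 33 thinned and 38 to 108 with 1 library left out. The cause was not tested, except that thinning and leaving libraries out reduce the counts or samples by construction. Neighbouring library codes were not taken as pairs, since not every pair's deviations correlated above 0.1 (-0.06 to 0.23); in Th1 all 6 libraries, and in Th17 3 of 6, correlated best with their own code, a hint from the data that leaves pairing in Th1 unsettled. With that replicate block 1117 genes were called in Th17, 1315 in Th1 and 329 in the interaction, and of the 10 genes 2 in Th17 (Ptpn6 added, adjusted p = 0.0120) and 3 in Th1 (Socs2 and Cish added). Depth limits Socs5 and all genes at a few counts in the shallow libraries.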
